A study of Mus musculus with 6 samples.

Results

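Small RNAs that lay in the body or at the 3′ end of L1Md_T copies were examined in mouse embryonic stem cells (ESCs) carrying shRNAs against Tet1 or Tet2. L1Md_T is the annotation name of the mouse L1 Tf elements, a young LINE-1 clade with active members. Every listed read in an L1Md_T copy was taken whose distance from the 5′ end of the copy was 1000 nt or more, measured from the start of the read for copies on the + strand and from its end for copies on the - strand. One copy on chromosome 13, which alone held between 7179 and 90862 reads per library, was left out. This gave 18998 reads of the 393511 listed in the 6 libraries, in 4721 of 4897 L1Md_T copies. The other 176 copies had no body read in any library.

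The cells were E14, an ESC line of 129/Ola background grown without feeders in serum and LIF. All groups, including the controls, had been infected with lentiviral pLKO.1 vectors, selected with 1 µg/ml puromycin from 24 h after infection and collected 3 days later, as the labels give it; the methods of the study give another dose and a range of days. shScr cells carried a non-targeting shRNA, shTet1 cells one hairpin against Tet1 and shTet2 cells one hairpin against Tet2, the genes of 2 enzymes that oxidise 5-methylcytosine in DNA. There were 2 libraries per group, and nothing in the labels says whether they came from separate infections, so p-values measure only the spread between these libraries. The files list reads in L1 copies alone, so that the level of Tet1 or Tet2 RNA could not be checked in them.

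An L1 element is transcribed from a promoter in its 5′ part into an RNA with 2 open reading frames. ORF1 encodes an RNA-binding protein that coats the RNA, ORF2 encodes the endonuclease and reverse transcriptase, and the RNA ends in a 3′ untranslated region and an A-rich tail. Cells can cut L1 RNA into short interfering RNAs of 21 to 23 nt with Dicer, and germ cells make PIWI-interacting RNAs of about 24 to 32 nt that often start with U. Fragments of degraded RNA have no fixed length and are mostly in the sense orientation. Both ORFs were open in 950 copies. One of these, at mm9 chr4:111602318-111608900 on the - strand, served as the reference copy: it spans 6583 bp, with ORF1 at positions 905 to 2020, ORF2 at 2061 to 5906 and 677 nt after ORF2.

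The most frequent reads are shown first, by their mean share of body reads over the 6 libraries. The 4 sense reads with the highest mean share are followed, in capitals, by the 13 bases that come next in the genome:
Sense read 1, chr6:104207077-104207151 (-): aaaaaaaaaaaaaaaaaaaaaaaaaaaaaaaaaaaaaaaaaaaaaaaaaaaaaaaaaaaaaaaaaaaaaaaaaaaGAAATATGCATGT
Sense read 2, chr14:88228852-88228866 (-): attactctgagacctAAACCACAGAAAG
Sense read 3, chr12:62805177-62805223 (-): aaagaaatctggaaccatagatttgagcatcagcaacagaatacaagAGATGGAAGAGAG
Sense read 4, chr6:145595402-145595443 (+): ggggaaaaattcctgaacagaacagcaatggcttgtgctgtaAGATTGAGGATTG
The 4 antisense reads with the highest mean share are given with the bases in capitals that differ from the genome at their place, below an 18-nt sequence that lies outside L1 copies:
Outside sequence, chr17:39983298-39983315 (+) and chr16:18533406-18533423 (-): tacctggttgatcctgcc
Antisense read 1, chr16:73658049-73658065 (-): tacctgGttgatcctgt
Antisense read 2, chr5:88486683-88486700 (+): tacaaggttgatcctgcc
Antisense read 3, chr5:88486683-88486700 (+): tacaaggttgatccAgcc
Antisense read 4, chr17:82979394-82979411 (-): tacatGgttgatcctgcc

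The 4 antisense reads resembled each other and the outside sequence, which as background is the start of mature 18S ribosomal RNA. Antisense reads of 15 to 20 nt with at most 3 mismatches to it were counted as an 18-nt family. The family held 1332 body reads of 71 sequences in 43 copies, and 94.7% of them were 17 or 18 nt long. No family read matched the outside sequence exactly, while 601 differed from it at 1 base, 437 at 2 and 294 at 3. For reads of 16 nt or more, the lack of exact matches follows from how reads were listed. The first 16 bases of the outside sequence occur in 0 of the listed L1 copies. A read that held them and matched the outside sequence along its whole length would fit better outside L1 copies, where reads are not listed. Antisense read 1 holds these 16 bases but differs from the outside sequence at its last base. It thus has 1 mismatch there and 1 at its L1 place. At the L1 copy where the family reads were placed, 299 matched exactly and 1033 had 1 mismatch. The family took 4.16% and 3.73% of body reads in shScr, 8.92% and 4.04% with shTet1, and 17.2% and 4.54% with shTet2. Replicate 1 of shTet2 thus stood far above the other libraries, with a 95% Wilson interval of 16.1 to 18.4%, against 3.54 to 5.81% in replicate 2. In L1 copies of other classes the same family took 15.8% of reads in shTet2 replicate 1, 7.90% in shTet1 replicate 1 and 2.53 to 4.05% in the other libraries, without the 3 L1 copies with most reads. The part of ribosomal RNA in these reads was not tested.

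A second set was made of reads with at least 80% A, here called A-rich reads. They numbered 1356, every one in the sense orientation and within 200 nt of the 3′ end of its copy, and 1261 of them were 75 nt long, the full length sequenced. They lay in 28 copies, and 3 copies held 1037 of them. Their share of body reads was 3.83% and 8.53% in shScr, 6.46% and 5.10% with shTet1, and 10.9% and 7.08% with shTet2, so that the shScr values enclosed those of shTet1. Between 7.64% and 19.05% of the A-rich reads of a library matched the genome without mismatch. The reads left after removing both sets are called the remaining reads: 16310 in all, between 71.9% of body reads in shTet2 replicate 1 and 92.01% in shScr replicate 1. Of these, 90.1% matched their place without mismatch.

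Remaining reads covered the whole coding part and thinned out after ORF2. Averaged over the 6 libraries, and per 1000 remaining reads within the body of the reference copy, 208 ± 17.9 (SD) reads per kb had their middle in ORF1, 194 ± 5.22 in ORF2 and 47.8 ± 6.43 after ORF2. The value after ORF2 was 43.3 and 56.4 in shScr, 54.9 and 40.7 with shTet1, and 46.3 and 45.1 with shTet2. The 3 groups overlapped, and every library was lower after ORF2 than in either ORF. The part after ORF2 makes up 12.1% of the reference body and held 3.10% of the remaining reads. With the A-rich and family reads kept, its share was 6.17% and 10.96% in shScr, 8.62% and 7.01% with shTet1, and 12.2% and 9.08% with shTet2. Remaining reads before ORF1 made up 3.64%, since copies with a longer 5′ part carry their first ORF beyond 1000 nt.

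**Figure D1:**
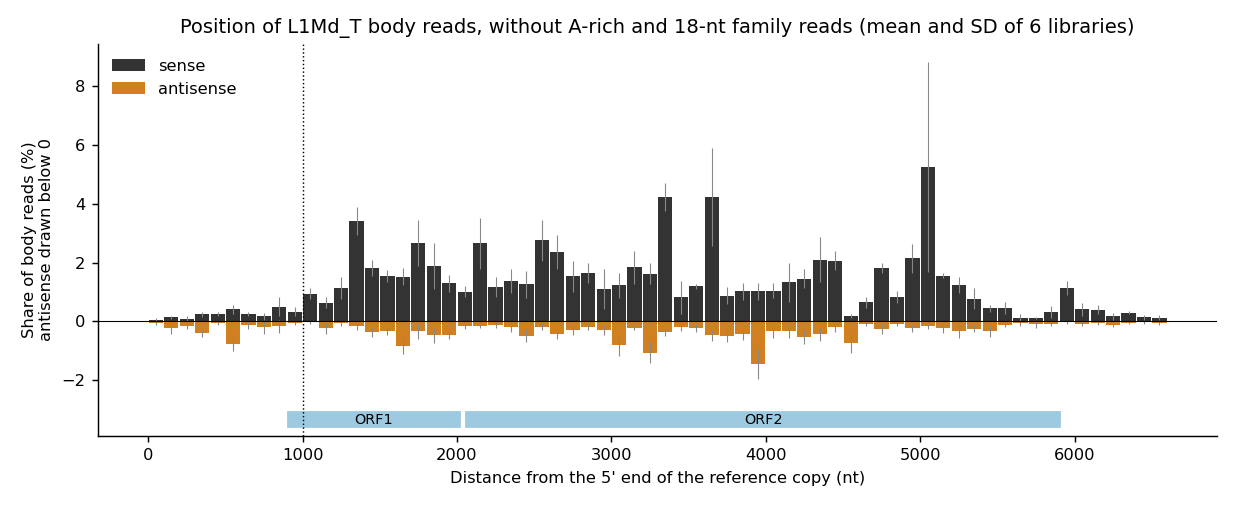
Share of the remaining L1Md_T body reads (%, y axis; antisense drawn below 0) in 100-nt windows of the reference copy (x axis, nt from its 5′ end), with bars for the mean and lines for the SD of 6 libraries, blue boxes for the ORFs and a dotted line at 1000 nt. Sense reads rise above antisense reads in nearly all windows of both ORFs, a few windows stand out, the one from 5001 to 5100 nt varies most between libraries, and few reads lie after ORF2.

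Coverage was uneven within the ORFs. The window from 5001 to 5100 nt in ORF2 held 6.60% and 4.40% of remaining reads in shScr, 2.21% and 3.92% with shTet1, and 11.95% and 3.42% with shTet2. Replicate 1 of shTet2 was again the highest, and the 2 shTet2 libraries lay on either side of both shScr libraries. The window from 3301 to 3400 nt was steadier, with 4.25% and 4.10%, 4.42% and 5.23%, and 5.32% and 4.30% in the same order. The first window to stand out, from 1301 to 1400 nt in ORF1, held between 2.72% and 4.05%.

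Reads also stopped at particular sites. Of the remaining sense reads under 73 nt, 736 ended at position 5093 of the reference copy, 344 at 1349 and 300 at 1817. These 3 sites are shown as 20 bases of the reference copy up to the site, then in capitals the 10 that follow:
Position 5093, ORF2: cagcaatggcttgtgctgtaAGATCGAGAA
Position 1349, ORF1: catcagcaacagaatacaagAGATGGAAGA
Position 1817, ORF1: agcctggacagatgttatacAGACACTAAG
The reads that ended at 5093 lay in 666 copies, began at 39 positions and were 15 to 66 nt long. A further 100 reads covered at least 15 nt up to the site and ran at least 4 nt past it. Of these 2 sets together, 88.0% ended at the site. Reads that ended closer behind it were in neither set. At 1349 only 8 reads ran through, and at 1817 there were 66. Sense reads 3 and 4 above end at 1349 and 5093.

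Sites followed by the 4 letters AGAT, searched on the strand of the read, stood out as a group. The reference body has 47 of them, 0.842% of its positions, and the next 4 genome bases after a remaining sense read were AGAT for 12.3% of reads. The share was 13.9% and 10.6% in shScr, 3.77% and 7.27% with shTet1, and 16.7% and 7.77% with shTet2. Both shTet1 libraries lay below both shScr libraries, and the shTet2 libraries lay on either side of them. After antisense reads AGAT came next in 0.922%, against 0.538% of positions on that strand. Summed over the 47 sites, ends made up 43.0% of ends and reads that ran through by the same rule. At all other body positions they made up 5.55%. Without the 2 sites with most ends the value was 21.2%. The reads had been passed through Trim Galore, which removes adaptor sequence from read ends, and the part of trimming in these ends was not tested.

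**Figure D2:**
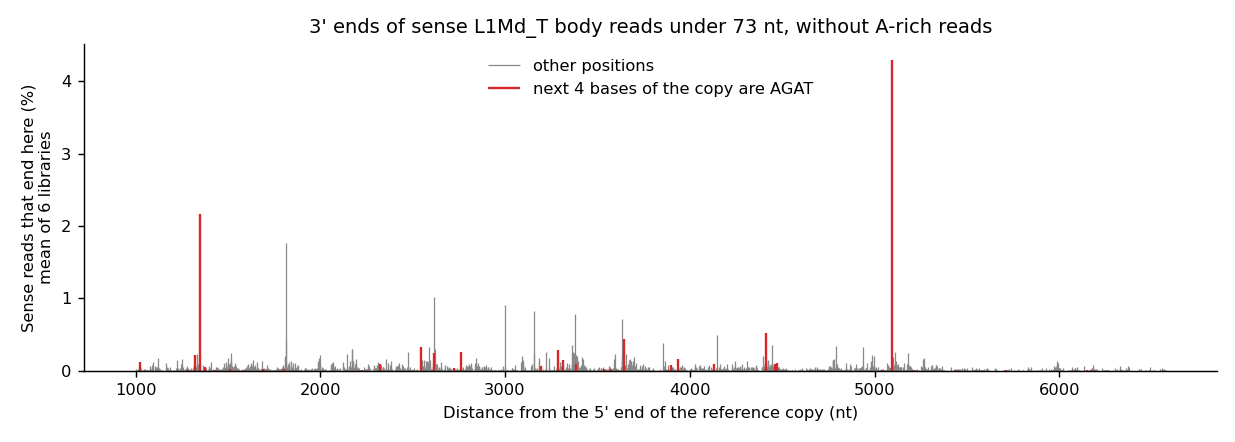
Share of remaining sense reads under 73 nt that end at each position of the reference copy (%, y axis, mean of 6 libraries) against distance from its 5′ end (nt, x axis), in red where the next 4 bases of the copy are AGAT. The 2 tallest lines, at 5093 nt (4.30%) and 1349 nt (2.17%), are red, and the third, at 1817 nt (1.76%), is not.

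Most body reads were sense. The antisense share was 22.3% and 19.6% in shScr (mean 20.9 ± 1.88, SD), 28.0% and 23.2% with shTet1 (25.6 ± 3.42) and 28.5% and 22.02% with shTet2 (25.3 ± 4.57). shTet1 exceeded shScr by 4.64 percentage points without overlap of the groups (exact two-sided permutation p = 0.333, the smallest that 2 libraries against 2 allow). shTet2 exceeded it by 4.31 points with overlap (exact permutation p = 0.667). The 18-nt family made up 60.4% of the antisense reads of shTet2 replicate 1 and 17.4 to 31.9% of those of the other libraries. Among the remaining reads the antisense share was 19.7% and 18.1% in shScr, 22.5% and 21.1% with shTet1, and 15.7% and 19.8% with shTet2, so that shTet1 stayed above shScr by a smaller amount while the mean of shTet2 fell below it.

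Orientation also changed along the copy. Before ORF1, which also covers the end of the promoter region in copies with a long 5′ part, 39.1 to 58.2% of the remaining reads of a library were antisense. In ORF1 the range was 11.9 to 22.5%, in ORF2 14.6 to 22.6%, and after ORF2 10.5 to 22.7%, where each library had only 19 to 182 reads. Within each library, the antisense share was lower in the body than in the first 1000 nt of the same copies, by a mean of 14.7 ± 7.53 percentage points (SD, 6 of 6 libraries, exact paired permutation p = 0.03125, the smallest possible, and 0.0625 after Benjamini-Hochberg adjustment over 10 comparisons). It was higher than in the body of L1Md_A copies, another young L1 class, by 9.19 ± 2.97 points (6 of 6 libraries, exact permutation p = 0.03125, adjusted 0.0625). Among the remaining reads the 2 differences were -19.1 ± 5.49 and 6.52 ± 1.27 points, again in 6 of 6 libraries. No result of this family could pass 0.05 after adjustment unless most of its 10 comparisons reached the smallest p.

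Body reads had no dominant small RNA length. Their median was 33 and 32 nt in shScr, 22 and 30 nt with shTet1, and 25 and 32 nt with shTet2. Sense reads were spread from 15 to about 60 nt with a peak at 75 nt, which the A-rich reads made up, and antisense reads peaked at 18 nt. Reads of 18 nt in antisense orientation formed 3.23 to 7.54% of body reads in 5 libraries and 14.9% in shTet2 replicate 1. Replicate 1 of each knockdown had more short reads than the other libraries. Of the body reads of shTet1 replicate 1, 44.5% were 15 to 20 nt long and 23.2% were 33 nt or longer, and in shTet2 replicate 1 the shares were 38.8% and 34.2%. The other 4 libraries had 18.3 to 22.3% and 44.6 to 51.7%. The same 2 shares in other L1 classes were 58.1% and 13.9% in shTet1 replicate 1, 56.2% and 17.9% in shTet2 replicate 1, and 31.8 to 39.5% and 31.97 to 38.5% in the other 4. The short reads of those 2 libraries were thus also seen outside L1Md_T.

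**Figure D3:**
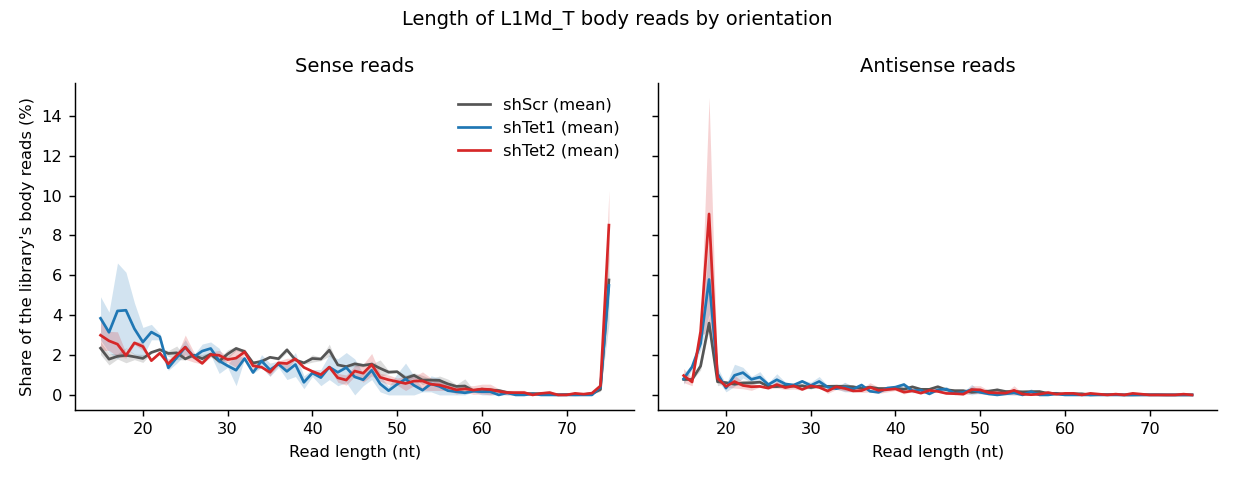
Share of each library's L1Md_T body reads (%, y axis) at each read length (nt, x axis), for sense (left) and antisense reads (right), with lines for group means and shading for the range of the 2 libraries. Sense reads spread over 15 to 60 nt with a peak at 75 nt, antisense reads peak at 18 nt, and the shading is widest at 18 nt antisense in shTet2 and below 20 nt sense in shTet1.

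Reads of 21 to 23 nt, the Dicer range, made up 8.004% and 8.44% of body reads in shScr (8.22 ± 0.309), 11.7% and 8.93% with shTet1 (10.3 ± 1.96) and 7.16% and 6.70% with shTet2 (6.93 ± 0.330). Both shTet1 libraries were above and both shTet2 libraries below the shScr libraries, by 2.09 and -1.29 percentage points (exact permutation p = 0.333 for each). The shTet1 difference within replicate number 2 was 0.485 points. Among the remaining reads the shares were 8.68% and 9.62%, 13.8% and 9.82%, and 9.93% and 7.58%, and the shTet2 libraries then lay on either side of the shScr libraries. Reads of 24 to 32 nt were 22.1% and 22.2% in shScr, 20.6% and 24.1% with shTet1, and 19.9% and 22.2% with shTet2 (differences 0.259 and -1.05 points, exact permutation p = 1.0 for both). The groups overlapped.

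Compared with the first 1000 nt of the same copies, the body held fewer reads of 21 to 23 nt. The mean was 8.49 ± 1.77% in the body and 14.9 ± 1.56% in the first 1000 nt, lower in 6 of 6 libraries (difference -6.41 ± 2.25 points, exact permutation p = 0.03125, adjusted 0.0625), and -4.98 ± 2.40 among the remaining reads. For 24 to 32 nt the difference was 0.285 ± 3.36 points (higher in 4 of 6 libraries, exact permutation p = 0.875, adjusted 0.875), and 3.91 ± 3.09 points among the remaining reads (5 of 6 libraries, exact permutation p = 0.0625, adjusted 0.0893). Against the L1Md_A body, with all reads counted, neither length class differed in one direction in all libraries, with -0.764 ± 1.42 points for 21 to 23 nt and -1.12 ± 2.39 for 24 to 32 nt (exact permutation p = 0.281 and 0.375, adjusted 0.402 and 0.469). Among the remaining reads the L1Md_T body had the higher share of 24 to 32 nt in 6 of 6 libraries (1.99 ± 1.61 points, exact permutation p = 0.03125, adjusted 0.0625), and for 21 to 23 nt the difference was 0.439 ± 1.33 points.

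First bases were set beside the base content of the element. T, which stands for U in the RNA, opened 19.5% of remaining sense reads and 46.8% of remaining antisense reads, where the reference body has 20.2% T on the sense strand and 40.3% on the antisense strand. A opened 49.3% of sense reads, against 40.3% A in the sense strand. Pooled over the libraries, antisense reads of 24 to 32 nt opened with T in 46.7% and sense reads in 19.8%, nearly the same as at all lengths. Single libraries varied more. The antisense share at 24 to 32 nt was 46.4% and 51.9% in shScr, 40.6% and 51.8% with shTet1, and 40.3% and 40.8% with shTet2, from 13 to 128 such reads per library. For sense reads of 24 to 32 nt it was 17.9 to 30.4%, highest in shTet1 replicate 1. Position 10 of sense reads of that length was A in 39.9% and 42.5% of reads in shScr, 30.4% and 45.6% with shTet1, and 39.1% and 39.6% with shTet2, beside 39.0 to 41.9% A over all their bases. Paired PIWI-interacting RNAs overlap by 10 nt at their 5′ ends. In shScr replicates 1 and 2 there were 37 and 23 such pairs of remaining reads of 24 to 32 nt on the reference copy, below the medians of 56 and 42 pairs at the other overlaps from 1 to 20 nt. The other libraries had 0 to 5 pairs. In no library did the pairs at 10 nt exceed those at every other overlap.

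With all body reads, T opened more reads in the body than in the first 1000 nt of the copies (28.4 ± 2.20% and 24.6 ± 1.26%, 6 of 6 libraries, exact permutation p = 0.03125, adjusted 0.0625). Without the family, whose named reads all start with T, and without the A-rich reads, the body value was 24.7 ± 1.91% and the difference 0.106 ± 1.97 points, higher in 3 of 6 libraries. Against the L1Md_A body the difference was 3.97 ± 3.20 points (5 of 6 libraries, exact permutation p = 0.0625, adjusted 0.104), and 1.82 ± 1.16 points without both sets of reads.

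Reads were spread thinly over many copies. At least 1 body read was found in 3336 and 3043 copies in shScr, 530 and 777 with shTet1, and 2158 and 1040 with shTet2, and between 52.1% and 90.9% of these copies had a single read. When 650 reads were drawn from every library, 571 and 541 copies had a read in shScr (mean 556 ± 20.8), 530 and 557 with shTet1 (544 ± 19.1), and 460 and 553 with shTet2 (507 ± 66.3). The differences from shScr were -12.4 and -49.4 copies, with overlap in both (exact permutation p = 0.667 for each). Without the A-rich and family reads, and with 550 reads drawn, the 6 libraries lay between 506 and 517 copies. The low value of shTet2 replicate 1 was thus not seen in the remaining reads.

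Only a small part of the reads matched a single listed L1 copy. Exact matches were counted over the 13686 L1 copies that hold a listed read, and the rest of the genome was not searched. Of body reads, 61.6% were carried exactly by 100 or more of these copies, 3.52% by 1 and 20.3% by none. Reads that fit several places equally well had been put at one of them at random. Of the remaining reads, 539 were carried by 1 listed copy alone. They lay in 335 copies, 265 of which had a single read, and 15.96% of them were antisense. Up to 59 of them came from 1 copy. By their listed places, 23.4% of body reads lay in copies with both ORFs open, which hold 22.03% of the body sequence, 19.6% in copies within protein-coding genes, which hold 20.8%, and 10.02% on chromosome X, which holds 9.86%. Random placement of shared reads would by itself spread them over the sequence available. Of the 539 reads carried by 1 listed copy alone, 16.1% lay within protein-coding genes, and 18.1% when the copy with 59 of them was left out.

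The 10 copies with most body reads of each library held 7.12% and 11.6% of them in shScr (9.34 ± 3.14), 13.2% and 9.14% with shTet1 (11.2 ± 2.89), and 23.7% and 11.2% with shTet2 (17.5 ± 8.85). shTet2 exceeded shScr by 8.16 percentage points and shTet1 by 1.85, with overlap in both (exact permutation p = 0.667 for each). When only the remaining reads were counted, the values were 2.36% and 3.57%, 5.27% and 4.80%, and 3.48% and 3.57%. These shares were taken at the libraries' own depths, which ran from 650 to 6322 body reads.

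The 5 copies with the highest mean share each owed it to 1 of the 2 sets of reads. The first, at chr6:56190526-56197456 on the - strand, has both ORFs open and lies in an intron of Pde1c (ENSMUSG00000004347.9), a calmodulin-dependent phosphodiesterase gene on the same strand. It held 96 and 106 reads in shScr, 10 and 13 with shTet1, and 139 and 25 with shTet2, and 387 of its 389 reads were A-rich. The copy at chr4:62586188-62592885 had 382 A-rich reads of 383, and the one at chr6:104207073-104214415, which holds sense read 1, had 268 of 273. The copy at chr16:73656977-73662488, which holds antisense read 1, had 42 and 61 reads in shScr, 16 and 7 with shTet1, and 164 and 30 with shTet2, of which 315 of 320 were of the family. The copy at chr5:88484621-88490094, the place of antisense reads 2 and 3, had 31 and 25, 11 and 4, and 123 and 5 reads, with 195 of 199 of the family. The last 4 copies overlap no annotated gene.

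**Figure D4:**
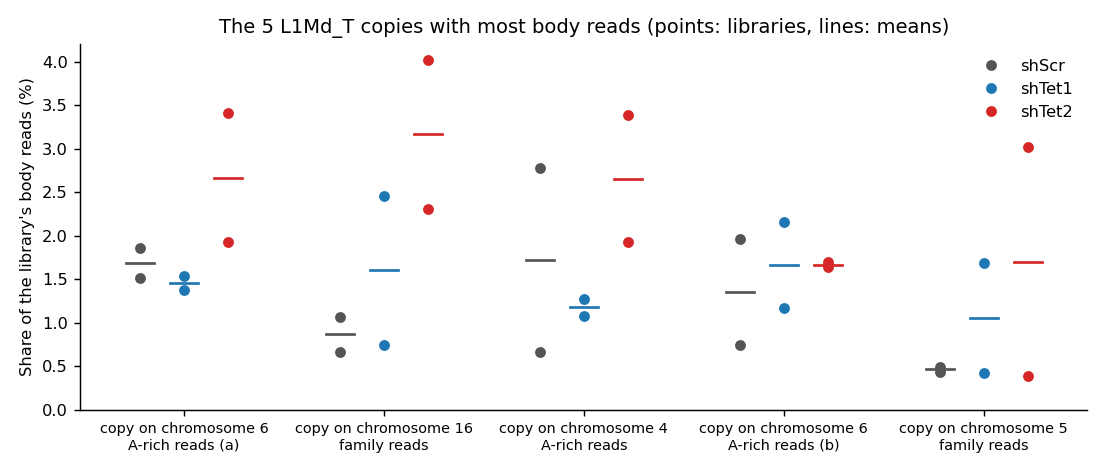
Share of each library's body reads (%, y axis) in the 5 L1Md_T copies with the highest mean share (x axis, by chromosome, with the set that made up most of their reads), with a point for each library and a line for each group mean. The highest point is shTet2 replicate 1 at the copy on chromosome 16, and the libraries of a group are often as far apart as the groups.

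Sense read 2, of 15 nt, was placed 82 times in ORF2 of the copy at chr14:88226080-88232087, which overlaps no annotated gene. Among L1Md_T body reads it was placed in no other copy, and reads placed in other L1 classes were not searched for it. It was read 16 and 31 times in shScr, 0 and 7 times with shTet1, and 22 and 6 times with shTet2. The 0 of 650 reads in shTet1 replicate 1 allows a share of up to 0.462%, and the share in shTet1 replicate 2 was 0.744%. Sense read 3, in ORF1, was placed in the body of 61 L1Md_T copies. The place given above, in an intron of Lrfn5, a gene of a neuronal adhesion protein, held only 2 of its 63 reads. Sense read 3 took 0.411% and 0.263% of body reads in shScr, 0.154% and 0.531% with shTet1, and 0.270% and 0.385% with shTet2. Sense read 4, in ORF2, was placed in the body of 97 L1Md_T copies. It was read 57 and 16 times in shScr, 0 and 1 times with shTet1, and 23 and 1 times with shTet2. These counts were 0.902% and 0.280% of body reads in shScr, 0% and 0.106% with shTet1, and 0.564% and 0.0770% with shTet2. For shTet1 replicate 1 the 0 again allows up to 0.462%, above the share of shScr replicate 2. The 2 libraries of shTet2 lay on either side of shScr replicate 2.

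The amount of body reads was compared with the other L1 reads, because library totals are not in the files. Body reads made up 26.2% and 25.5% of the reads outside the 3 L1 copies with most reads in shScr (25.8 ± 0.525), 21.4% and 23.4% with shTet1 (22.4 ± 1.42), and 22.8% and 23.7% with shTet2 (23.3 ± 0.674). Both knockdowns were lower without overlap (differences -3.46 and -2.56 percentage points, exact permutation p = 0.333 for each). With all listed reads as the base the differences were 0.0762 and 0.0617 points, so that this direction rests on the choice of base. Body reads as a share of all L1Md_T reads were 66.4% and 63.6% in shScr, 54.4% and 62.9% with shTet1, and 62.0% and 61.6% with shTet2 (differences -6.37 and -3.19 points, exact permutation p = 0.333 for each). Among the remaining reads shTet1 replicate 2, at 60.6%, reached the lower shScr value of 60.6%. Just outside the limit, at 900 to 999 nt, there were 20 to 229 reads per library, and just inside it, at 1000 to 1099 nt, 39 to 273.

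**Figure D5:**
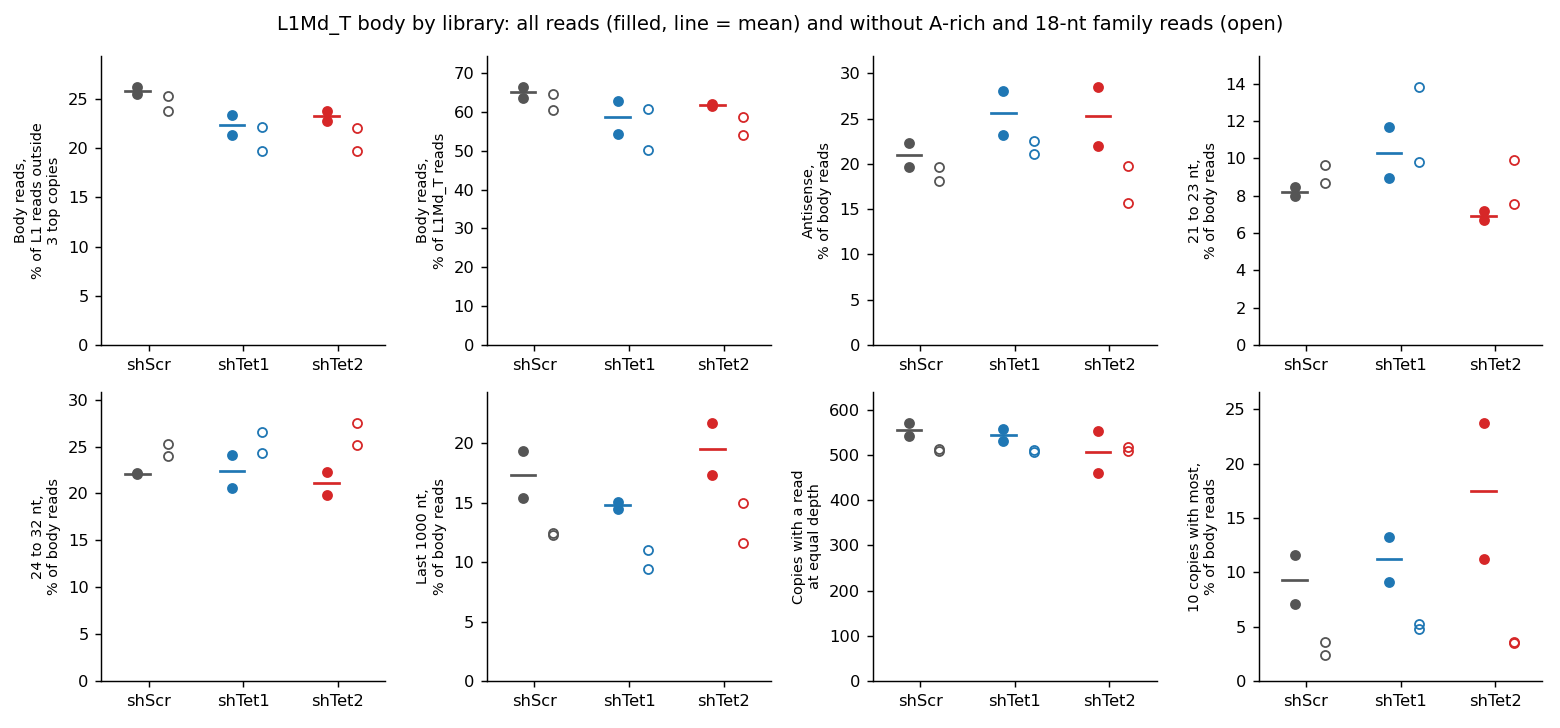
The 8 measures of L1Md_T body reads (y axes, in percent or number of copies, from 0) for each library by group (x axis), with all body reads as filled points and group means as lines, and the remaining reads as open points. For the share among L1 reads both shScr libraries lie above the 2 knockdown groups, which overlap each other, while replicate 1 of shTet2 drops from the top to the bottom of the antisense panel when the 2 sets of reads are left out.

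The last 1000 nt of the copies held 15.4% and 19.4% of body reads in shScr (17.4 ± 2.82), 14.5% and 15.1% with shTet1 (14.8 ± 0.445), and 21.7% and 17.3% with shTet2 (19.5 ± 3.11). shTet1 was lower (difference -2.58 points, exact permutation p = 0.333) and shTet2 higher by 2.16 points with overlap (exact permutation p = 0.667). A-rich reads made up 24.9 to 50.3% of the reads there. In the remaining reads they were 12.5% and 12.3% in shScr, 9.45% and 10.99% with shTet1, and 15.0% and 11.6% with shTet2.

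The body was also divided into bins of 500 nt from the 5′ end, and the bins of all L1 classes were fitted together with limma. The chromosome 13 copy, left out of the body reads, entered this fit as 1 of the 127 bins. Its reads counted in the library sizes. No bin passed an adjusted p of 0.05 in either knockdown: 0 of 127 bins tested (0%), among them 0 of the 13 L1Md_T body bins. At an unadjusted p under 0.05 there were 2 bins for shTet1, 1 of them in the L1Md_T body, and 7 for shTet2, none of them there. The median log2 fold change of the 13 bins was -0.14 for shTet1 and -0.15 for shTet2, beside 0.01 and -0.01 over all bins, and without scaling of library sizes it was 0.02 and -0.04, beside 0.15 and 0.13. For shTet1 the lowest unadjusted p values of bins with fewer reads were at 5500 to 5999 nt (183 and 174 reads in shScr, 12 and 20 in shTet1, log2 fold change -0.69 ± 0.26, SE) and 4500 to 4999 nt (-0.44 ± 0.21), and of bins with more at 1000 to 1499 nt (0.11 ± 0.16) and 7000 to 7499 nt (0.26 ± 0.56), with limma adjusted p = 0.979 for all 4. For shTet2 they were 1500 to 1999 nt (-0.52 ± 0.25) and 2500 to 2999 nt (-0.32 ± 0.17) below 0, and 6500 to 6999 nt (0.57 ± 0.36) and 7000 to 7499 nt (0.46 ± 0.47) above 0, with limma adjusted p = 0.495, 0.495, 0.495 and 0.656. The difference between the knockdowns was below the threshold in all 127 bins too, with 2 at an unadjusted p under 0.05.

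Single copies gave the same count. Of the 88 L1 copies that reached 10 reads in 2 or more libraries, 17 were L1Md_T copies by their body reads, and 0 of 88 (0%) passed in either knockdown by limma. The chromosome 13 copy was among the 88, apart from the 17, and its reads counted in the library sizes. At an unadjusted p under 0.05 there were 0 copies for shTet1 and 3 for shTet2, of which 1 was an L1Md_T copy, the one on chromosome 16 that holds antisense read 1 (log2 fold change 1.35 ± 0.52, limma adjusted p = 0.685). Next to it, the longest listed copy, of 13492 bp at chr3:6299059-6312550, had 31 and 38 reads in shScr, 3 and 7 with shTet1, and 16 and 2 with shTet2 (log2 fold change for shTet2 -1.45 ± 0.63, limma adjusted p = 0.685). It is named here after its values were seen, and no sequence occurred more than 3 times among its 97 remaining reads.

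Diversity was compared with the same other parts. Out of 451 reads drawn per library, distinct positions, strands and lengths made up 92.4 ± 5.88% in the body and 98.3 ± 1.74% in the L1Md_A body, lower in 6 of 6 libraries (difference -5.89 ± 4.32 points, exact permutation p = 0.03125, adjusted 0.0625). The lowest value, 80.9%, was that of shTet2 replicate 1. Among the remaining reads, with 434 drawn, the difference was -0.265 ± 0.387 points. Against the first 1000 nt of the copies the difference was 0.579 ± 4.88 points with all reads and 7.40 ± 5.13 points among the remaining reads, where the body was the more diverse in 6 of 6 libraries.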

How the data were processed

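Small RNA libraries of 6 samples had been sequenced from one end for 75 bp. The submitters' processing notes name Trim Galore 0.3.3 and Bowtie2 2.1.0 and the genome mm9. The authors kept reads of at least 15 nt, placed reads with several equally good positions at one at random, and deposited the reads that fall in L1 copies, 1 per line, with positions of read and copy. The deposited files hold no count or other measured value, so reads were tallied here. Positions count from 0 in the files and were shifted to start at 1. The listed reads number 11566 to 128715 per library and the body reads 650 to 6322, and 3 body reads are a share of 0.0475 to 0.462%. Intervals and floors cover counting error only.

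Bases at each place came from NCBIM37 and genes from GENCODE vM1, which are of the same build. Copies were aligned to the reference copy to give positions along the element. Equal-depth numbers are expected values for reads drawn without replacement. Shares were compared with exact two-sided permutation tests. Tallies per bin or copy (those that reached 10 reads in 2 or more libraries) were fitted with limma 3.58.1 (R 4.3.3) voom, all 6 libraries in one model, TMM factors written out by hand and Benjamini-Hochberg adjustment, after tests on simulated data. Other steps used scipy 1.17.1, pandas 2.3.3 and pysam 0.24.0 in Python 3.11.15. Named were the 5 copies and the 4 sense and 4 antisense sequences with the highest mean share, and the 2 bins with the smallest p in each direction. The members, lists and tests were chosen with earlier results of these data known. The 18-nt family and its removal, with and without the A-rich reads, the use of reads without mismatch alone, and the crossed pairing were chosen after seeing the data. The shTet1 libraries, which had the fewest body reads, agreed within sampling noise over 500-nt bins (chi-square p = 0.460) but not over length classes (chi-square p = 4.4e-27). The libraries of shScr and of shTet2 differed over 500-nt bins (chi-square p = 1.3e-20 and 4.7e-21) and over length classes (chi-square p = 1.1e-42 and 1.3e-72). Each group was counted as 2 replicates.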

Additional observations from a re-analysis of the deposited data

Results flagged for a closer look

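The share of 21 to 23 nt among L1Md_T body reads lay above both shScr values in each shTet1 library and below them in each shTet2 library. The mean of shTet1 exceeded that of shTet2 by 3.38 percentage points. The difference between the 2 knockdowns was not tested. Replicate 1 of shTet1, with 11.7%, holds 76 reads of this length among 650, with a 95% Wilson interval of 9.44 to 14.4%. Without the A-rich and family reads the 2 shTet2 libraries, at 9.93% and 7.58%, lay on either side of the shScr libraries.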

How the results depend on the processing

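For the shares and copy numbers, the exact permutation test of 2 libraries against 2 cannot reach 0.05, so their directions alone are compared. Of 216 alternative values of the shares, copy numbers and within-library comparisons, 25 turned the direction. With all listed reads as the base, the share of body reads was higher by 0.0762 points in shTet1 and 0.0617 in shTet2. The antisense share of shTet2 became -0.932 points against shScr when each position, strand and length was counted once, -1.73 without the family and -1.16 without the family and A-rich reads. The share of 24 to 32 nt turned most often. For shTet1 it became -0.210 when reads were counted once and -8.43 among reads of 18 to 32 nt. For shTet2 it became 1.20 when counted once, 0.634 without the family, 1.73 without the family and A-rich reads and 1.46 among reads without mismatch. The share in the last 1000 nt of shTet2 became -0.225 among reads of 18 to 32 nt and -0.343 without A-rich reads. The number of copies of shTet2 rose by 2.38 without the family and A-rich reads. Against the L1Md_A body, the share of 21 to 23 nt became 0.0866 points when counted once and 0.439 without the family and A-rich reads, and that of 24 to 32 nt 1.15 and 1.99. The causes were not tested.

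Leaving out 1 library gave these ranges, for shTet1 and then shTet2 against shScr. They were -4.46 to -2.46 and -3.04 to -2.08 points for body reads among L1 reads, -10.6 to -2.14 and -4.54 to -1.83 for their share of L1Md_T reads, 2.22 to 7.06 and 1.07 to 7.54 for antisense reads, and 0.704 to 3.47 and -1.53 to -1.06 for 21 to 23 nt. They were -1.50 to 2.01 and -2.24 to 0.137 for 24 to 32 nt, -4.58 to -0.583 and -0.0345 to 4.36 for the last 1000 nt, -27.1 to 2.32 and -96.3 to -2.43 for copies, and -0.374 to 4.07 and 1.90 to 14.4 for the top 10. The turns came without shTet1 replicate 2 (24 to 32 nt, -1.50), without shTet2 replicate 1 (24 to 32 nt, 0.137, and the last 1000 nt, -0.0345), without shScr replicate 1 (copies 2.32, top 10 -0.374) and without shTet1 replicate 1 (copies 1.10, top 10 -0.199).

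Replicate numbers are shared by the groups, but the labels do not say that they pair the libraries. The deviations of same-numbered libraries over 13 bins correlated at -0.495 (shScr and shTet1), -0.308 (shScr and shTet2) and 0.0260 (shTet1 and shTet2). With the replicate block the mean differences of the shares are the same by construction (4.64 points for antisense reads in shTet1, for example), and the smallest exact permutation p is 0.5. Within limma, 0 L1Md_T bins or copies passed under any of the 88 alternatives, the replicate block and the crossed pairing included. Over all 127 bins the replicate block gave 2 calls for shTet2 and 2 between the knockdowns, the crossed pairing 0. Counting reads once gave 3 for shTet1 and 4 for shTet2, of 117, and shTet2 had 6 without shTet2 replicate 2. Without scaling, the median over all 88 copies was 0.32 for shTet1 and 0.70 for shTet2, against 0.05 and 0.10. Depth limits the shTet1 libraries most, with 650 and 941 body reads.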
